A study of Mus musculus with 5 samples.

Results

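Collagen is finished by enzymes that act on its prolines and lysines, and 10 genes for such enzymes were examined in liver tumours with and without overexpression of the transcription factor Prox1. They were taken by symbol, as the collagen prolyl 4-hydroxylase alpha subunits (P4ha1, P4ha2, P4ha3), the lysyl hydroxylases (Plod1, Plod2, Plod3) and 4 lysyl oxidases (Lox, Loxl1, Loxl2, Loxl4). All 10 were found among the 55397 Ensembl identifiers of the normalised count table, and 10 of 10 reached the mean of 10 normalised counts that was required for a test. A normalised count is the number of reads of a gene divided by a size factor of its library. The remaining lysyl oxidase of the mouse, Loxl3, was not among the 10 and is given with the other crosslinking enzymes.

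The tumours arose in female C57BL/6N mice that were injected at 8 weeks of age through the tail vein with a large volume of plasmid solution, which brings DNA into hepatocytes. Every mouse received the Sleeping Beauty transposase with pT3-EF1a-AKT and pT3-EF1a-NICD-IRES-rtTA, so that Akt and the intracellular domain of a Notch receptor were driven by the EF1a promoter in both groups. The 2 Control libraries came from tumours with pT3-Tre-IRES-GFP, and the 3 Prox1 overexpression (Prox1 OE) libraries from tumours with pT3-Tre-FLAG-mmProx1-IRES-GFP, whose Tre promoter is switched on by rtTA and doxycycline. Doxycycline food (6.25%) was given from day 21 for overexpression from week 3 to week 4, and tumours were taken after that week or at a humane endpoint, and the labels do not say which applied to which library. The study counts mice as the replicates of this experiment, while the labels do not tie each library to a mouse, and the p-values measure the spread between these libraries. Because whole dissected tumours were sequenced, fewer cells of a type and less RNA per cell cannot be told apart.

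Collagen chains are modified in the endoplasmic reticulum before they leave the cell. Prolyl 4-hydroxylase, a complex of alpha subunits with the protein disulfide isomerase P4hb, hydroxylates prolines and thereby makes the collagen helix stable at body temperature. Lysyl hydroxylases modify selected lysines, and these hydroxylysines carry sugars and form the firmer kinds of crosslink. Both enzyme families need iron, oxygen and ascorbate. Outside the cell the copper-dependent lysyl oxidases convert lysines and hydroxylysines to aldehydes, which then join neighbouring collagen or elastin molecules. In liver these steps are best known from scarring, where stellate cells and fibroblasts make most of the collagen, and several of these genes are also known targets of the hypoxia-inducible factors.

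Promoter sequence was available from RefSeq for 6 of the 10 genes (GRCm38.p6, the sequence of mm10). It was lacking for Plod2, Lox, Loxl1 and Loxl2, so that the firmest falls given below are not represented. Of the 6, 4 are shown, the 3 alpha subunits that fell together and Plod1, which rose, although its call depended on single libraries and on the scaling. Each is the 250 bases before the RefSeq transcription start, read 5′ to 3′ on the strand of the gene. The strand is plus for the P4ha genes and minus for Plod1, and the positions are chr10:59323046-59323295 for P4ha1, chr11:54100674-54100923 for P4ha2, chr7:100285270-100285519 for P4ha3 and chr4:147936777-147937026 for Plod1. Capitals mark ACGTG or GCGTG on either strand, the core letters that hypoxia-inducible factors bind. ACGTG is also contained in the E-box CACGTG.
P4ha1: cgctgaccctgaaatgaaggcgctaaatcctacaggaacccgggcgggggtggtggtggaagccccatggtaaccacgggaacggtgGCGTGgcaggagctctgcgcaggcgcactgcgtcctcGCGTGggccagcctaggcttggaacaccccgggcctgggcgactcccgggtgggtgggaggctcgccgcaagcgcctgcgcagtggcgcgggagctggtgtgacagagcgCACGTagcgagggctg
P4ha2: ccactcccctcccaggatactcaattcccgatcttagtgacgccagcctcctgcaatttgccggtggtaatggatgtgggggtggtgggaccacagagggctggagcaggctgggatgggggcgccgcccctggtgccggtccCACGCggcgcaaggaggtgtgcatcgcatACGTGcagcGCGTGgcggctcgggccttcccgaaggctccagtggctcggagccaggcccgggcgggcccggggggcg
P4ha3: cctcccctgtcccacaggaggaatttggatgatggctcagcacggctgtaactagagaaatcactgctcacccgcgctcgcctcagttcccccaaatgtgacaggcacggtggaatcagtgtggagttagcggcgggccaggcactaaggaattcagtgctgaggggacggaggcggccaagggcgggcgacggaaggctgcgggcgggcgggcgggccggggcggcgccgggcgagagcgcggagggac
Plod1: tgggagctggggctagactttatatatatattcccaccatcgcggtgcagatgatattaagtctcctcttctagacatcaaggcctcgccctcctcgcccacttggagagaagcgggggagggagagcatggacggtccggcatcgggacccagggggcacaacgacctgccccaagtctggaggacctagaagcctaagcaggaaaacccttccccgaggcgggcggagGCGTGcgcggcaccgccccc

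The P4ha1 window held 3 such matches, at 163, 126 and 16 bases before the start. The P4ha2 window held 3 as well, at 107, 78 and 69 bases, and lies downstream of another annotated start of that gene. No match was present in the 250 bases of P4ha3, and 1 was present in those of Plod1, 20 bases before the start. Of the windows not shown, that of Plod3 had 4 matches and that of Loxl4 had 1. Such letters are common, since 51.9% of the 15633 start sites of tested genes and 38.6% of all 32851 start sites held at least 1. How the matches relate to the changes was not tested.

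Libraries held 48740863 to 56629477 reads, of which the 10 most abundant genes took 9.37% to 10.06% in Control and 13.2% to 15.1% in Prox1 OE. Prox1 itself had 4153 and 4664 normalised counts in Control against 48090, 11113 and 8231 in Prox1 OE, so that replicate 1 stood far above the other Prox1 OE libraries (log2 fold change 1.90, SE 0.66, limma adjusted p 0.061). The labelled cell type, transformed hepatocytes, was read beside marker lists. Hepatocyte and cholangiocyte markers were both present in all libraries, with no hepatocyte or cholangiocyte marker at 0 in any of them.

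Of the 10 enzyme genes, 6 fell, 1 rose and 3 did not pass the test. Among all 17105 genes tested, 16.2% were called lower and 17.1% higher, and the median log2 fold change was -0.02, against -0.81 for the 10 enzymes. Every Prox1 OE library lay below both Control libraries for 7 of the 10 and above both for 2, where the same holds for 32.4% and 30.9% of all genes tested. The groups overlapped for Loxl1. Without Control replicate 1 the number of enzymes called was 3 (Plod2, Lox and Loxl2), with 6.77% of all genes called in either direction, and without Prox1 OE replicate 1, the library with the highest Prox1, it was 7, with 43.8% of all genes called. Where libraries were scaled by their total count, the median of all genes moved to -0.44, and 8 enzymes were called lower and 0 higher, beside 39.9% and 8.62% of all genes.

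**Figure D1:**
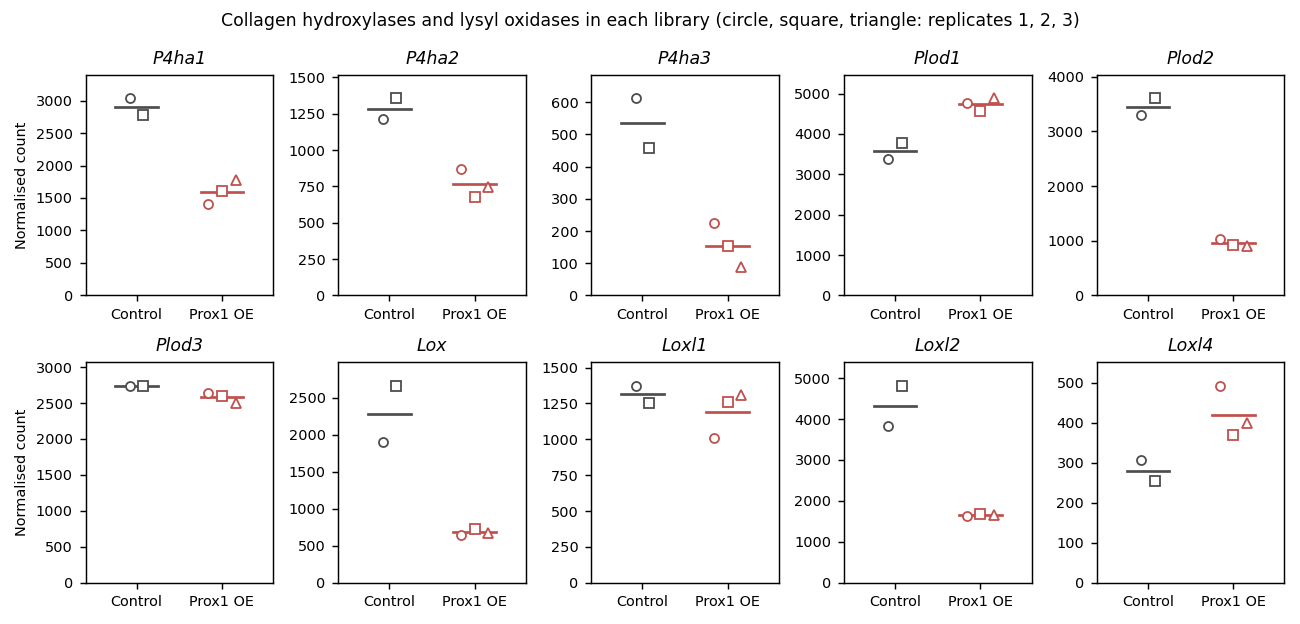
Normalised counts of the 10 enzyme genes (vertical axes, each from 0) in the 2 Control and 3 Prox1 OE libraries. Each point is a library, with circles, squares and triangles for replicates 1, 2 and 3, and lines are group means. Plod2, Lox and Loxl2 show wide gaps between the groups, Plod1 and Loxl4 lie higher in Prox1 OE (with libraries scaled by total count, the log2 fold changes of these genes were -0.025 and 0.15), and the groups overlap for Loxl1.

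The 3 alpha subunits of prolyl 4-hydroxylase all fell. P4ha1 (ENSMUSG00000019916, mm10 chromosome 10, 59323296 to 59373304) codes for the most widely used alpha subunit, and it had 3036 and 2780 normalised counts in Control and 1408, 1614 and 1771 in Prox1 OE. Both Control values lay above all Prox1 OE values, and the mean in Prox1 OE was 54.9% of Control. Its log2 fold change of -0.87 (SE 0.13) had a limma adjusted p of 0.0043, with an adjusted p of 0.060 without Control replicate 1. P4ha2 (ENSMUSG00000018906, chromosome 11, 54100095 to 54131665) codes for a second alpha subunit that also pairs with P4hb. It had 1211 and 1356 normalised counts in Control and 871, 680 and 744 in Prox1 OE. The groups did not overlap, and the log2 fold change was -0.75 (SE 0.15, adjusted p 0.0097), with adjusted p values of 0.071 and 0.097 without Control replicates 1 and 2.

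P4ha3 (ENSMUSG00000051048, chromosome 7, 100285520 to 100319699), another alpha subunit, had the lowest mean level per kilobase of exon in the family. In Control replicate 1 it was about level with P4ha2 by this measure, which depends on the length taken for P4ha2 (6239 exon bases, longest transcript 3060). P4ha3 had 612 and 457 normalised counts in Control and 224, 153 and 86.8 in Prox1 OE, the last of which was 75 reads. Relative to their mean, the Prox1 OE libraries spread more widely for this gene than for P4ha1, and all 3 lay below both Control libraries. The log2 fold change was -1.87 (SE 0.38, adjusted p 0.010), with an adjusted p of 0.098 without Control replicate 1.

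The lysyl hydroxylases did not move together. Plod2 (ENSMUSG00000032374, chromosome 9, 92542223 to 92608428), which hydroxylates lysines in the short non-helical ends of collagen chains, had 3296 and 3607 normalised counts in Control and 1029, 926 and 902 in Prox1 OE. The Prox1 OE libraries lay close to each other and far below Control, at a mean of 27.6% of Control. The log2 fold change was -1.86 (SE 0.12, adjusted p 0.0014), the smallest adjusted p among the 10 genes, and it stayed under the threshold in 16 of 16 alternatives, with log2 fold changes from -2.29 to -1.78.

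Plod1 (ENSMUSG00000019055, chromosome 4, 147909753 to 147936767) hydroxylates lysines within the helix. It had 3373 and 3781 normalised counts in Control and 4756, 4564 and 4885 in Prox1 OE, so that all Prox1 OE libraries lay above both Control libraries. The log2 fold change was 0.41 (SE 0.11, adjusted p 0.028). This call was lost without Control replicate 1 (adjusted p 0.26), Control replicate 2 (0.10), Prox1 OE replicate 2 (0.054) or Prox1 OE replicate 3 (0.067). The value was -0.025 when libraries were scaled by total count.

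Plod3 (ENSMUSG00000004846, chromosome 5, 136987019 to 136996648) adds sugars to hydroxylysine as well as hydroxylating lysine. It had 2738 and 2744 normalised counts in Control and 2635, 2599 and 2499.9 in Prox1 OE. All 5 values lay within a narrow band, the Prox1 OE libraries just below Control, and the log2 fold change was -0.09 (SE 0.10, adjusted p 0.54). Plod3 overlaps Znhit1 on the opposite strand (2286 and 2295 normalised counts in Control and 2799, 3692 and 3756 in Prox1 OE), and whether counting used the strand was not stated, so that reads of the pair may be mixed.

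Of the 4 lysyl oxidases, 2 fell, 0 rose and 2 did not pass the test. Lox (ENSMUSG00000024529, chromosome 18, 52516067 to 52529867), the founding enzyme of the family and an oxidase of collagen and elastin, had 1895 and 2663 normalised counts in Control and 645, 730 and 671 in Prox1 OE. The Control libraries differed from each other by more than the whole range of Prox1 OE, and both lay far above it. The log2 fold change was -1.72 (SE 0.17, adjusted p 0.0022). Loxl2 (ENSMUSG00000034205, chromosome 14, 69609068 to 69695834), which crosslinks collagen IV of basement membranes, had 3835 and 4820 normalised counts in Control and 1626, 1668 and 1667 in Prox1 OE. The Prox1 OE libraries were almost equal, at a mean of 38.2% of Control, and the log2 fold change was -1.38 (SE 0.13, adjusted p 0.0021). Both calls stayed under the threshold in 16 of 16 alternatives.

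Loxl1 (ENSMUSG00000032334, chromosome 9, 58287738 to 58313186), an oxidase needed to maintain elastic fibres, had 1375 and 1254 normalised counts in Control and 1007, 1261 and 1312 in Prox1 OE. Prox1 OE replicate 1 was the lowest and the other libraries overlapped, with a log2 fold change of -0.15 (SE 0.15, adjusted p 0.48). Without Prox1 OE replicate 1 it was -0.029, and with libraries scaled by total count it was -0.58 (adjusted p 0.018). Loxl4 (ENSMUSG00000025185, chromosome 19, 42593982 to 42612813), a relative of Loxl2 with the same kind of scavenger receptor domains, had 306 and 253 normalised counts in Control and 493, 368 and 398 in Prox1 OE. All Prox1 OE libraries lay above both Control libraries, but the log2 fold change of 0.58 (SE 0.19, adjusted p 0.054) missed the threshold. It passed in 5 of 16 alternatives, and the adjusted p ran from 0.022 with DESeq2 to 0.62 with libraries scaled by total count, where the log2 fold change was 0.15. Without Control replicate 2 it was 0.44 (adjusted p 0.32).

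Enzyme transcripts were then set against those of their main substrate. The fibrillar collagens Col1a1, Col1a2, Col3a1, Col5a1 and Col5a2 all fell (5 of 5, median log2 fold change -1.18), and their summed normalised counts in Prox1 OE were 53.3% of Control. The mean log2 value of these 5 genes was subtracted in each library and the test was run again. On this scale most genes appear raised, with a median of 1.04 over all genes tested, 75.0% of them called higher and 1.57% lower.

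Relative to fibrillar collagen, Plod2, Lox and P4ha3 were lower in Prox1 OE, 3 of the 10 genes. Plod2 had log2 values relative to collagen of -2.41 and -2.22 in Control and -3.0, -3.31 and -3.05 in Prox1 OE (log2 fold change -0.80, adjusted p 0.0020). Its transcript thus fell by more than those of the collagens, with an adjusted p of 0.054 without Control replicate 2. For Lox the relative values were -3.21 and -2.66 in Control and -3.67, -3.65 and -3.47 in Prox1 OE (log2 fold change -0.67, adjusted p 0.012). This rested on Control replicate 2, without which the log2 fold change was -0.39 (adjusted p 0.31). For P4ha3 they were -4.84 and -5.20 in Control and -5.20, -5.90 and -6.41 in Prox1 OE, where the groups overlapped, the highest Prox1 OE library lying at the level of the lower Control library. Its log2 fold change was -0.81 (adjusted p 0.033), and the call was lost without Control replicate 1 (0.16), Prox1 OE replicate 2 (0.14) or Prox1 OE replicate 3 (0.13). Without 1 library at a time the value ran from -1.13 (without Prox1 OE replicate 1) to -0.53 (without Prox1 OE replicate 3).

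P4ha1, P4ha2 and Loxl2 did not pass the test relative to collagen. P4ha1 had relative log2 values of -2.53 and -2.60 in Control and -2.55, -2.51 and -2.08 in Prox1 OE (log2 fold change 0.19, SE 0.20, adjusted p 0.40). Its Control values fell inside or next to the range of Prox1 OE. Without 1 library at a time the value of P4ha1 ran from 0.035 (without Prox1 OE replicate 3) to 0.27 (without Prox1 OE replicate 1). The relative log2 fold change was 0.30 (SE 0.21, adjusted p 0.20) for P4ha2, with an adjusted p of 0.034 without Prox1 OE replicate 2. For Loxl2 it was -0.32 (SE 0.20, adjusted p 0.15), and -0.52 and -0.13 without Control replicates 1 and 2.

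Plod1, Plod3, Loxl1 and Loxl4 were higher relative to collagen, as 75.0% of genes were. Their relative log2 fold changes were 1.46 (adjusted p 4.0e-05), 0.97 (adjusted p 0.00042), 0.91 (adjusted p 0.0014) and 1.63 (adjusted p 6.4e-05). Plod1 and Loxl4 thus lay above the median of all genes on this scale and Plod3 and Loxl1 below it. When the reference was instead the mean of 12 mesenchymal markers, 6 of the 10 genes were called lower, P4ha1, P4ha2 and Loxl2 now among them, and 2 higher (Plod1 and Loxl4). On that scale 7.86% of all genes were called lower and 28.7% higher, with a median of 0.24.

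**Figure D2:**
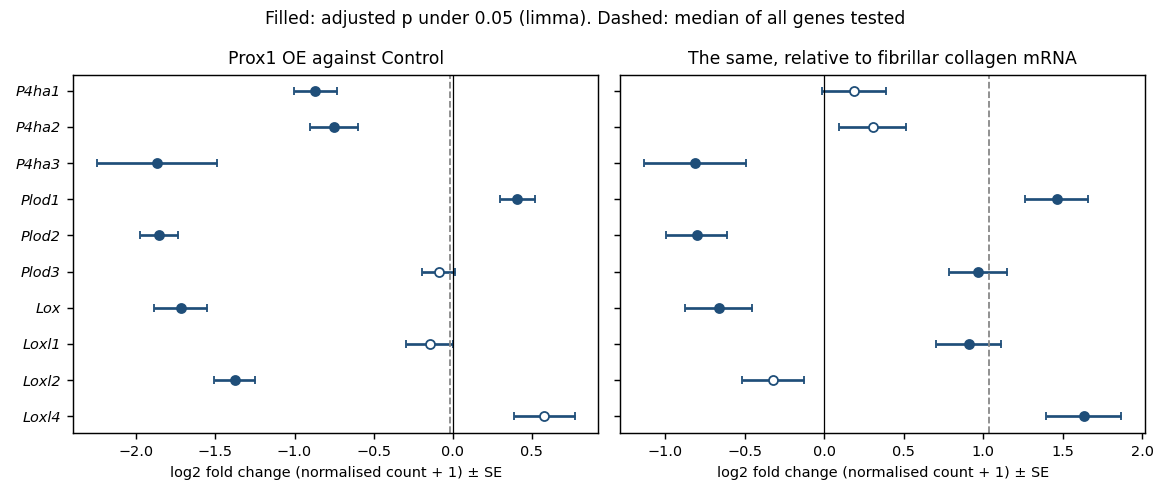
Log2 fold changes of the 10 enzyme genes in Prox1 OE against Control (left) and the same after subtracting the mean log2 value of 5 fibrillar collagens in each library (right), on log2(normalised count + 1). Bars are SE from limma, filled points have an adjusted p under 0.05, and the dashed lines are the medians of all genes tested (-0.02 and 1.04). Plod2, P4ha3 and Lox are filled and left of 0 in both panels.

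Because the members of a family do related work, their make-up was also compared, per kilobase of exon so that genes of unlike length can be set side by side. The summed level of the P4ha family in Prox1 OE was 51.7% of Control, that of the 4 lysyl oxidases 52.2% and that of the Plod family 81.5%. Without division by length these were 53.3%, 48.2% and 84.6%, beside 53.3% for the summed fibrillar collagen counts, which were not divided by length either. The lysyl oxidase sum joined genes that moved apart, from 29.9% of Control for Lox to 150% for Loxl4. Plod2 took 35.6% and 36.5% of Plod family counts per kilobase in Control and 12.9%, 12.1% and 11.6% in Prox1 OE. The groups were far apart, with a difference of -23.8 percentage points (two-sided exact permutation p 0.1, the smallest possible with 5 libraries). The mean share of Plod1 was 29.8% in Control and 48.4% in Prox1 OE, and that of Plod3 was 34.2% and 39.4%.

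The share of Loxl2 in the lysyl oxidases was 44.5% and 47.2% in Control and 35.05%, 33.1% and 32.8% in Prox1 OE. All Prox1 OE shares were lower, with a difference of -12.2 percentage points (two-sided exact permutation p 0.1, again the smallest possible). Mean shares went from 27.2% to 15.7% for Lox, from 23.1% to 39.6% for Loxl1 and from 3.87% to 11.0% for Loxl4. By mean share, Loxl2 was the leading oxidase in Control and Loxl1 the leading one in Prox1 OE. In Prox1 OE replicate 1 the 2 were almost level (35.6% for Loxl1 and 35.05% for Loxl2). Without division by length, Loxl2 stayed above Loxl1 in every Prox1 OE library (1626, 1668 and 1667 against 1007, 1261 and 1312 normalised counts). In the P4ha family, P4ha2 took 17.2% and 20.9% in Control and 25.2%, 19.8% and 20.7% in Prox1 OE, with overlapping groups and a difference of 2.83 percentage points (two-sided exact permutation p 0.6). P4ha3 took 17.3% and 14.0% in Control and 12.9%, 8.89% and 4.8% in Prox1 OE. Its groups did not overlap, and its mean share was 15.7% in Control and 8.87% in Prox1 OE, a difference of -6.81 percentage points that was not tested. P4ha1 was the main alpha subunit in all 5 libraries, at 61.9% to 74.5%.

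**Figure D3:**
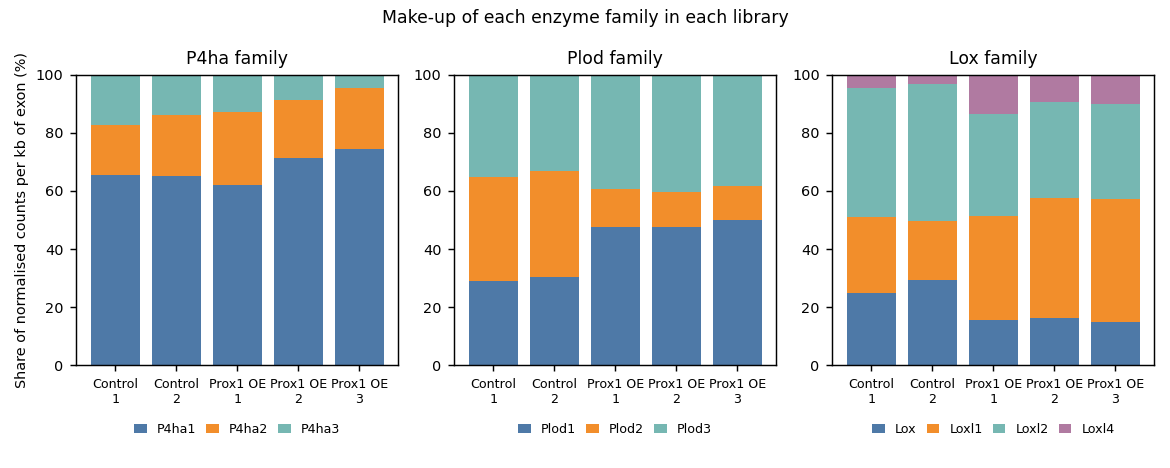
Share of each gene in the normalised counts per kilobase of exon of its family (vertical axis, percent) in each of the 5 libraries. Plod2 falls from a mean of 36.0% in Control to 12.2% in Prox1 OE, while P4ha1 stays the largest share of its family throughout.

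By level per kilobase of exon, the order in Control ran from Loxl2 (mean 801 normalised counts per kilobase) through P4ha1 (707), Plod2 (640), Plod3 (607), Plod1 (529), Lox (477), Loxl1 (399), P4ha2 (206) and P4ha3 (170) to Loxl4 (66.4). Ranges of the 2 Control libraries overlapped between 4 pairs of neighbours, namely Loxl2 (710 to 892) with P4ha1 (676 to 738), Plod1 with Lox, Lox with Loxl1, and P4ha2 with P4ha3. The other neighbours did not overlap. In Prox1 OE the order began with Plod1 (700), followed by Plod3 (571), P4ha1 (388), Loxl1 (362), Loxl2 (306), Plod2 (177), Lox (143), P4ha2 (123), Loxl4 (99.6) and P4ha3 (49.3). Plod1 (675 to 722) and Plod3 (553 to 583) did not overlap there, whereas P4ha1 (342 to 430) and Loxl1 (305 to 398) did, as did Loxl1 with Loxl2, Lox with P4ha2 and P4ha2 with Loxl4. By this length, Plod2 moved from among the highest to the lower part of the order and Plod1 from its middle to the top. Ranks and overlaps hold for exon length only, and the order was not repeated with the longest transcripts. These are much shorter than the exons together for Plod1 (4097 against 6765 bases) and P4ha2 (3060 against 6239), but not for Loxl2 (5316 against 5405).

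Other genes that fold and modify collagen were mixed, with 1 of 13 higher, 4 lower and 8 not called (median log2 fold change -0.27). Among all genes tested, 17.1% were called higher and 16.2% lower. P4hb, the partner that the alpha subunits need and a protein folding enzyme in its own right, rose. It had 55011 and 67148 normalised counts in Control and 102164, 112786 and 125262 in Prox1 OE, with no overlap (log2 fold change 0.89, adjusted p 0.014). Per kilobase, P4hb exceeded the 3 alpha subunits together 17.1-fold and 22.6-fold in Control and 64.5-fold, 71.6-fold and 75.8-fold in Prox1 OE, a ratio that was chosen after the values were seen. Fkbp10, a prolyl isomerase that works with Plod2 on the ends of the chains, fell from 1672 and 1655 to 724, 923 and 762 normalised counts (log2 fold change -1.06, adjusted p 0.0032). The others that fell were the collagen chaperone Serpinh1 (-0.68, adjusted p 0.014), Crtap (-0.53, adjusted p 0.019) and P3h4 (-0.86, adjusted p 0.018), named after their values were seen.

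Of 8 tested genes of collagen processing and other crosslinking, 0 rose and 1 fell, beside 17.1% and 16.2% of all genes tested. The fall was that of the procollagen N-propeptidase Adamts2 (log2 fold change -0.71, adjusted p 0.0054). The transglutaminase Tgm2, the most abundant of the 8, had a log2 fold change of -0.05 (adjusted p 0.85). Loxl3, named after its values were seen, had 643 and 539 normalised counts in Control and 491, 503.9 and 377 in Prox1 OE. These libraries did not overlap, but the log2 fold change of -0.38 (adjusted p 0.15) did not pass. Basement membrane and microfibrillar collagens fell in 4 of 5 genes (median -0.67), led by Col4a1 (-0.85, adjusted p 0.0035), a substrate of Loxl2. Of 9 tested elastic fibre genes, 2 fell and 0 rose (median -0.04), beside 16.2% and 17.1% of all genes tested. Those that fell code for fibrillins, the microfibril scaffold on which elastin is laid down, with Fbn2 at -0.87 (adjusted p 0.012) and Fbn1, which had the highest mean over the 5 libraries but not within Prox1 OE, at -0.77 (adjusted p 0.013). Elastin itself (Eln), the substrate of lysyl oxidases among them, was named after its values were seen and did not pass (-0.04, SE 0.28, adjusted p 0.93). Its Prox1 OE libraries were split, with replicate 1 (1577 normalised counts) below both Control libraries (2498 and 2475). Replicates 2 and 3 (2872 and 3142) lay above them.

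Genes that supply ascorbate and copper to these enzymes rose in 4 of 8 and fell in 2 of 8 (median 0.65). The ascorbate transporter Slc23a1 had 877 and 1076 normalised counts in Control and 4161, 2748 and 4360 in Prox1 OE (log2 fold change 1.92, adjusted p 0.0025). Rgn and Gulo, which act in ascorbate synthesis in mouse hepatocytes, rose by 1.5 (adjusted p 0.0061) and 0.85 (adjusted p 0.014), the latter named after its values were seen. Atp7a, the pump that loads copper into secreted enzymes such as Lox, had 660 and 488 normalised counts in Control and 346, 60.2 and 83.3 in Prox1 OE, named after its values were seen. Prox1 OE replicate 1 stood above the other Prox1 OE libraries, and the log2 fold change was -2.23 (SE 0.66, adjusted p 0.038). The copper chaperone Atox1, which hands copper to this pump, rose from 8284 and 8888 to 12701, 17415 and 18122 normalised counts (log2 fold change 0.89, adjusted p 0.0092). The copper importer Slc31a1 lay above both Control libraries in every Prox1 OE library without passing the test (0.46, adjusted p 0.054), and both were named after their values were seen. The other ascorbate transporter, Slc23a2, fell by 0.52 on the log2 scale (adjusted p 0.027).

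Hypoxia response genes fell in 7 of 14, and 0 of 14 rose (median -0.59). Egln3, an oxygen sensor and target of the hypoxia-inducible factors, had 3007 and 3775 normalised counts in Control and 1396, 1093 and 1145 in Prox1 OE, with no overlap (log2 fold change -1.48, adjusted p 0.0024). The glucose transporter Slc2a1 (-1.23, adjusted p 0.0032) and the carbonic anhydrase Car9 (-3.31, adjusted p 0.0034) also fell, both named after their values were seen. The glycolytic genes of the list did not pass the test, among them Ldha, the most abundant, at 0.11 (adjusted p 0.66). Whether the enzyme genes and the hypoxia genes share a cause was not tested.

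**Figure D4:**
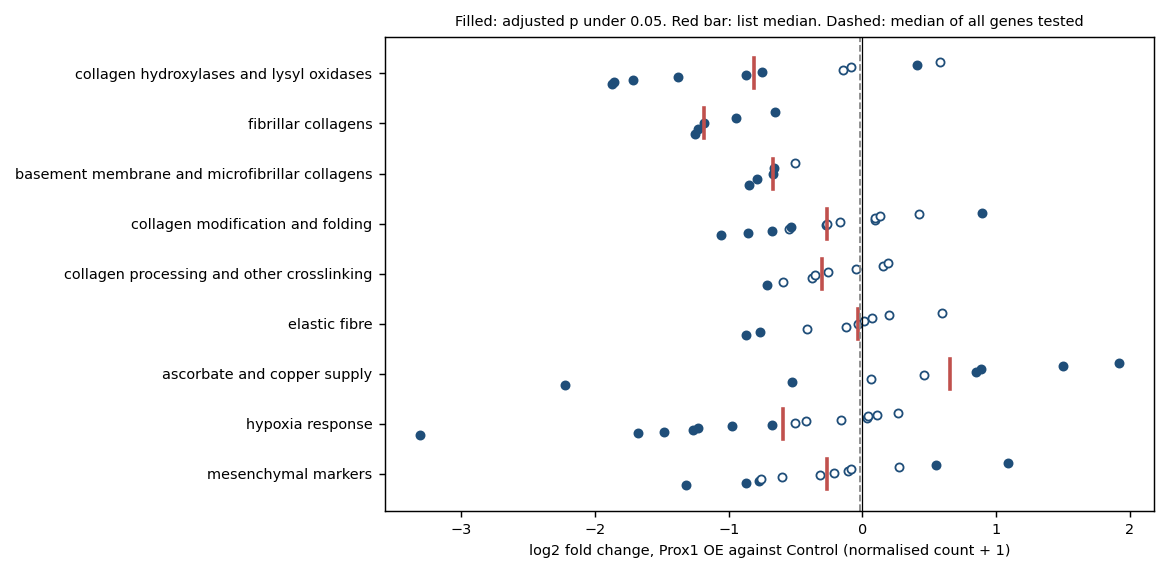
Log2 fold changes in Prox1 OE against Control for the genes of 9 lists (points), with list medians as red bars, filled points for an adjusted p under 0.05 and a dashed line at the median of all genes tested (-0.02). Medians were -1.18 for fibrillar collagens, -0.81 for the 10 enzymes, -0.59 for hypoxia response and 0.65 for ascorbate and copper supply.

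Markers of the cells that make collagen moved in both directions. Of 12 mesenchymal markers, 2 rose, 3 fell and 7 were not called (median -0.26), beside 17.1% of all genes called higher and 16.2% lower. Lrat, a marker of quiescent stellate cells, had 353 and 328 normalised counts in Control and 802, 602 and 791 in Prox1 OE (log2 fold change 1.09, adjusted p 0.0047). Postn, a marker of activated fibroblasts, fell by 0.87 on the log2 scale (adjusted p 0.0040), and the pericyte marker Rgs5, the most abundant of the list, by 0.77 (adjusted p 0.0057). The largest fall of the list was that of Acta2, a marker of myofibroblasts and smooth muscle, with 8180 and 11977 normalised counts in Control and 3492, 5135 and 3480 in Prox1 OE (log2 fold change -1.32, adjusted p 0.0058). Tagln (-0.76, adjusted p 0.062) and Thy1 (-0.60, adjusted p 0.065) lay below both Control libraries in every Prox1 OE library without passing the test. The broad fibroblast marker Dcn (0.27, adjusted p 0.11) lay above both Control libraries in every Prox1 OE library, also without passing. Pdgfrb had a log2 fold change of -0.08 (adjusted p 0.65). Acta2, Tagln, Thy1, Dcn and Pdgfrb were named after their values were seen. Summed mesenchymal markers ran from 66669 to 72081 normalised counts in Control and from 43953 to 48601 in Prox1 OE, and none was at 0 in any library. Their part in the fall of the enzyme genes was not tested beyond the values relative to these markers given above.

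Markers of other cells moved with the groups as well, and the counts below stand beside 17.1% of all genes called higher and 16.2% lower. Hepatocyte markers rose in 9 of 11 (median 1.62), with sums of 1235919 to 1806821 normalised counts in Control and 3585068 to 5141242 in Prox1 OE. Cholangiocyte markers fell in 7 of 9 tested (median -1.21), with sums of 758943 to 828042 in Control and 523659 to 707881 in Prox1 OE. Most of these sums was Spp1, which was not called (log2 fold change -0.34, adjusted p 0.51), and the other 9 markers summed to 43293 to 46933 in Control and 14342 to 19057 in Prox1 OE, a sum taken after the values were seen. Macrophage markers rose in 5 of 10 (median 0.84), lymphocyte markers in 4 of 6 tested (median 1.17), erythroid markers in 1 of 3 tested (median 1.03) and endothelial markers in 3 of 10, with 1 lower (median -0.24). Proliferation genes fell in 5 of 6 (median -0.82). Over all lists, 70 of 129 tested genes other than the 10 enzymes were called, and 23 and 42 without Control replicates 1 and 2. With libraries scaled by total count, 92 of the list genes were called, 25 higher and 67 lower, in place of 29 higher and 41 lower. The part of these cell types in the values of the enzyme genes was not tested.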

How the data were processed

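Bulk RNA-seq of 2 Control and 3 Prox1 OE liver tumours was used. The authors prepared dUTP libraries, mapped paired reads to mm10 with STAR and deposited normalised counts per gene, a signal obtained by dividing reads by DESeq2 size factors (the counting tool is not given in the sources used here). All values (100%) were whole multiples of 1 read within 0.01 read, worth 0.822 to 1.18 normalised counts, so that reads were recovered. A deposited table of the authors' own comparison was not used. No per-sample column was left unassigned (0 columns).

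Genes with a mean of at least 10 normalised counts (17105) were tested two-sided with limma 3.58.1 in R 4.3.3 (lmFit, eBayes with trend) on log2(normalised count + 1), and p-values were adjusted by Benjamini-Hochberg and read at 0.05. Fold changes are on that scale, which understates changes of low genes. The test was checked on simulated data. Alternatives included edgeR 4.0.16 and DESeq2 1.42.0 on recovered reads. GENCODE matched 55137 identifiers (99.5%). No replicate pair agreed within sampling noise (chi-square of 36.2 or more for each degree of freedom).

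The enzyme genes and the gene lists were chosen with earlier results of these data known. From each list, the called gene with the smallest adjusted p in each direction and the most abundant gene were named where they bore on the enzymes, and any other gene is said to be named after seeing its values.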

Additional observations from a re-analysis of the deposited data

How the results depend on the processing

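Over 16 alternatives for each of the 10 enzymes, 142 of 160 values kept their direction and their side of the threshold, 10 lost the call, 7 gained it and 1 reversed. The reversed value was Plod1 with the total count as library size (log2 fold change -0.025, adjusted p 0.89), a scaling that left 17.8% of calls over all genes higher (1475 higher and 6833 lower) in place of 51.4%. There Plod3 (-0.52, adjusted p 0.016) and Loxl1 (-0.58, adjusted p 0.018) were called lower. Plod1 also missed the threshold without the trend (adjusted p 0.069). Leaving out 1 library at a time gave 3 to 7 enzymes called (7 with all libraries) and 23 to 72 other list genes (70 with all libraries), the lowest without Control replicate 1, and 5 to 7 enzymes relative to fibrillar collagen. A group left with 1 library was assumed to vary like the other. Over all genes, 1158 were called without Control replicate 1, 2270 without Control replicate 2 and 5702 with all libraries; without the trend the number was 4227, with edgeR 5761 and with DESeq2 6647. The differences in the shares of Plod2, P4ha2 and Loxl2 kept their sign under other transcript lengths and without each library, but that of P4ha2 ran from 0.974 (without Control replicate 1) to 4.68 percentage points (without Control replicate 2). The other shares were not put through the alternatives.

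In a fit with a replicate block, which uses replicates 1 and 2 only, 7 enzymes were called, Loxl4 (adjusted p 0.035) in place of Plod1 (0.071), and 6 relative to fibrillar collagen, where P4ha3 was lost (0.059). Deviations of same-numbered libraries correlated by 0.14 and 0.02, and the labels do not tie the numbers, so that the numbers were taken as names only. With 2 Control libraries, small changes such as that of Plod1 depend on single libraries, and exact tests over libraries could not go below 0.1. The lowest enzyme value, that of P4ha3 in Prox1 OE replicate 3, rested on 75 reads.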
